A study of Mus musculus with 8 samples.

Results

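The genes described here encode 3 kinds of conjugating enzyme: UDP-glucuronosyltransferases (UGT, symbols starting with Ugt and a digit), glutathione S-transferases (GST, and the membrane-bound MGST) and cytosolic sulfotransferases (SULT, symbols starting with Sult and a digit, without Sult6b1). Members were chosen by symbol, and a probe was tested where its detection p-value was under 0.05 on at least 2 of the 8 arrays. Of 62 such genes on the array, 41 were tested, with 70 of their 104 probes; the whole series held 12476 named genes with a tested probe. For a gene with several tested probes, the probe that was brightest on average stands for the gene. By family, 12 of 21 UGT, 21 of 23 GST, all 3 MGST and 5 of 15 SULT genes were tested, and 35 of the 41 were detected on all 8 arrays. Sult5a1, detected on 2 arrays, lay just inside the limit and Ugt2a3, detected on 1, just outside it. The other 20 untested genes were detected on no array: Gstm3, Gstt4, Sult1b1, Sult1c1, Sult1e1, Sult2a1, Sult2a2, Sult2a6, Sult2a8, Sult3a1, Sult3a2, Sult4a1, Ugt1a9, Ugt2a1, Ugt2a2, Ugt2b1, Ugt2b35, Ugt2b37, Ugt2b38 and Ugt2b5.

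Conjugation makes lipid-soluble compounds easier to excrete. UGT enzymes sit in the endoplasmic reticulum and join glucuronic acid, taken from UDP-glucuronic acid, to bilirubin, steroids, bile acids and drugs. GST enzymes join the tripeptide glutathione to reactive electrophiles, and SULT enzymes move sulfate from the donor PAPS to phenols and steroids. In the kidney these enzymes are known mainly from tubule epithelium, above all the proximal tubule, and the mouse kidney is known for sex differences in such genes.

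The samples were CD31-positive cells of adult mouse kidney on a C57B6/CD1 background, collected with magnetic beads against CD31, an endothelial surface protein encoded by Pecam1. Mutants carried the Crim1KST264/KST264 genotype (both copies of a gene-trap allele of Crim1, a transmembrane protein that binds bone morphogenetic proteins), and controls were wildtype. There were 4 groups of 2 arrays: wildtype females (samples 1 and 3), mutant females (1 and 3), wildtype males (2 and 4) and mutant males (2 and 4). Nothing in the labels says that each array holds RNA of 1 mouse of its own, so that the spread behind the p-values is that between these 8 samples and may be technical.

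Crim1 itself, by its brightest probe, read 6.97 to 7.98 on the wildtype arrays and 4.67 to 5.82 on the mutant arrays (mutant minus wildtype -2.33, adjusted p = 0.037, limma), so the genotypes separated as labelled. The median raw signal per array ran from 83.2 to 98.5, and 45.1% to 48.7% of probes were detected. The levels of Xist and Eif2s3y separated the sexes as labelled. On the second principal component mutant male 2 (53.8) and wildtype male 4 (-39.87) stood apart from each other and from the other 6 arrays (-14.85 to 3.469). Pan-endothelial markers were present, and so were markers of tubule cells, which CD31 does not mark. The 12 tested pan-endothelial markers summed to 50867 to 149570 signal units per array on the linear scale, and the 13 tested proximal tubule markers to 149811 to 187517. Kdr and Ggt1, a marker in each list, had no tested probe.

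Every call among the tested conjugating enzymes was between the sexes and none between the genotypes. Of the 41 genes, 12 were higher in females and 2 were higher in males at an adjusted p under 0.05, which makes 34.1% of the tested members against 3.73% of all named genes. For all named genes the share was 2.20% higher in females and 1.52% higher in males. The members were chosen with earlier results of these data known, so the shares are a description and no list test was run. UGT genes changed in both directions (5 higher in females, 2 higher in males, of 12), whereas the GST calls (6 of 21) and the MGST call (1 of 3) were all higher in females and none of the 5 SULT genes passed. The remaining 27 members did not pass. Of the arrays that stood apart, leaving out mutant male 2 gave 13 members past the threshold for sex and leaving out wildtype male 4 gave 11; both gave 0 for genotype. The 4 female and 4 male arrays did not overlap for 22 of the 41 members, 19 of them higher in females, against 14.0% of all named genes in either direction. The difference, given throughout as male minus female on the log2 scale, was below 0 for 31 of 41 members, against 53.5% of all named genes. Ugt1a1 and Ugt1a5 met the limit of 2 arrays through the females alone, the sex in which they were high, so their place among the calls follows in part from that limit.

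**Figure D1:**
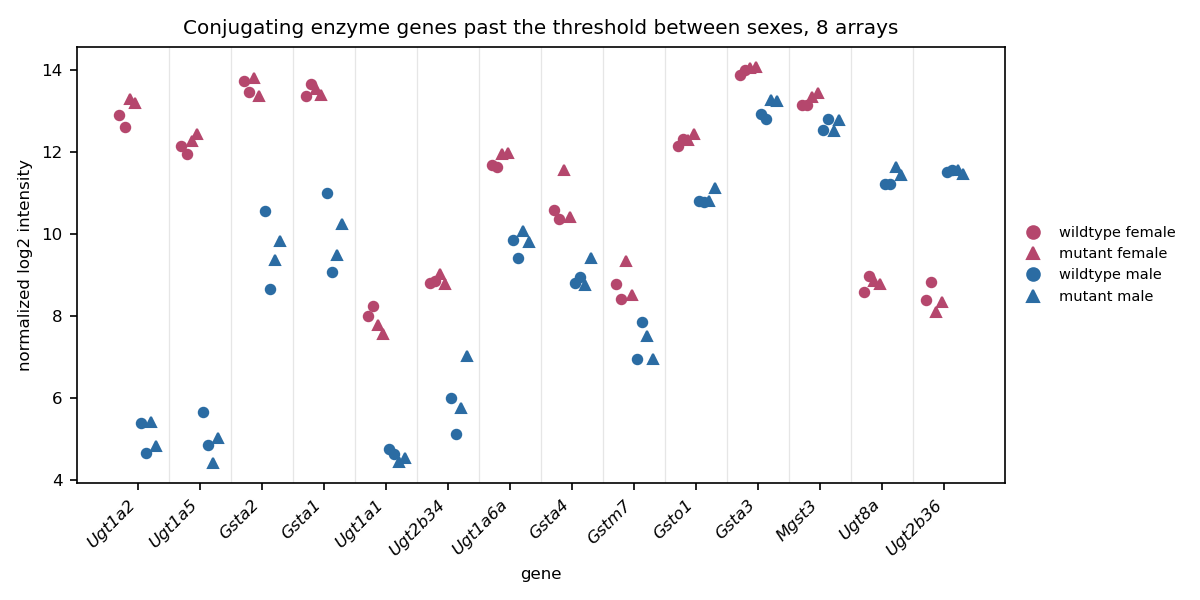
Normalized log2 intensity (vertical axis) of the 14 conjugating enzyme genes past the threshold between the sexes (horizontal axis), 1 point per array, with females in red, males in blue, wildtype as circles and mutants as triangles. Red points lie above blue points for 12 genes and below them for Ugt8a and Ugt2b36, and circles and triangles of 1 sex lie close together by comparison.

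The mouse Ugt1a locus is a row of alternative first exons, each with its own promoter, that are spliced to a shared set of later exons; the first exon sets which compound the enzyme binds. In RefSeq (GRCm38.p6) the tested genes lie on chromosome 1 in the order Ugt1a10, Ugt1a7c, Ugt1a6b, Ugt1a6a, Ugt1a5, Ugt1a2 and Ugt1a1, with Ugt1a1 starting 156.5 kb after Ugt1a10. The 250 bases before the starts of the 3 genes with male arrays at or near background are shown because each first exon is transcribed from its own start. Capitals mark a match to the motif of the liver and kidney factor HNF1, which begins 45 bases before the start of Ugt1a1; the other windows here held none of the 4 motifs searched.
Ugt1a2, chr1:88200361-88200610 (plus strand, GRCm38.p6): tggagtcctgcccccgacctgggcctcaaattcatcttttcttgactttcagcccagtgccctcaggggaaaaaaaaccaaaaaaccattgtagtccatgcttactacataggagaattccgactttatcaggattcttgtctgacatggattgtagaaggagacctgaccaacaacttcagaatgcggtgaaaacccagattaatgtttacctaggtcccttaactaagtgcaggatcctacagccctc
Ugt1a5, chr1:88165762-88166011 (plus strand, GRCm38.p6): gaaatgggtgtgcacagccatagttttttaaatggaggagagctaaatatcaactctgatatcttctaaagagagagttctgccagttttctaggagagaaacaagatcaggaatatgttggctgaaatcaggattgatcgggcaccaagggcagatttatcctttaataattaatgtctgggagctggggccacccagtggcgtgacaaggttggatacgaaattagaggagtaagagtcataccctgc
Ugt1a1, chr1:88211709-88211958 (plus strand, GRCm38.p6): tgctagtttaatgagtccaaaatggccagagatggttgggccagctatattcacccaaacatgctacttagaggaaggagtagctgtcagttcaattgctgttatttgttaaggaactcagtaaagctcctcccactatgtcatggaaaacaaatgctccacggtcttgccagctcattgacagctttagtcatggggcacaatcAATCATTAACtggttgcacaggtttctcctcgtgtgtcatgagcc

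Ugt1a2 read 12.90 and 12.61 in wildtype females, 13.28 and 13.18 in mutant females, 5.38 and 4.66 in wildtype males and 5.41 and 4.84 in mutant males (normalized log2 signal). All 4 female arrays were high and all 4 male arrays were near the bottom of the scale, with detection on 4 female and 2 male arrays. The means were 12.99 ± 0.301 in females and 5.07 ± 0.382 in males (SD, n = 4 each), a fitted difference of -7.92 (SE 0.21, adjusted p = 8.88e-06, limma). With male arrays raised to the lowest signal detected on each, females were at least 206-fold higher on this normalized scale. In the raw signals the same probe gave 6149 to 10053 units in females and 79.7 to 108.1 in males. The size rests on male values near background: with no background correction the difference was -6.25, and in the authors' processed values it was -5.33.

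Ugt1a5 followed the same division. It read 12.15 and 11.95 in wildtype females, 12.26 and 12.44 in mutant females, 5.66 and 4.86 in wildtype males and 4.42 and 5.02 in mutant males. Detection held on 4 female arrays and 1 male array. Against the same floor females were at least 114-fold higher on this normalized scale. The fitted difference was -7.21 (SE 0.22, adjusted p = 1.64e-05); it was -5.53 with no background correction and -4.54 in the authors' values.

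Ugt1a1, the bilirubin-conjugating isoform, was also split by sex. It read 8.01 and 8.24 in wildtype females and 7.79 and 7.56 in mutant females. In wildtype males it read 4.77 and 4.64 and in mutant males 4.45 and 4.53, not above background on any of these 4 arrays. On this normalized scale females were at least 6.23-fold higher, set against the lowest signal detected on each male array. The fitted difference was -3.30 (SE 0.12, adjusted p = 3.86e-05, limma). It was smaller in other settings, at -1.80 with no background correction and -1.0 in the authors' values.

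Ugt1a6a, an isoform of the group that conjugates small phenols, was detected in both sexes. It read 11.67, 11.63, 11.95 and 11.98 in females and 9.85, 9.40, 10.07 and 9.81 in males (wildtype 2 arrays first, then mutant). The groups did not overlap, and the difference was -2.03 (SE 0.14, adjusted p = 0.000975), 4.07-fold. Its 2 dimmer probes did not pass, at -0.38 and 0.24, and the mean of its 3 probes gave -0.72 (adjusted p = 0.0614).

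Ugt1a10 was measured by 6 probes. The brightest read 15.05 to 15.38 in females and 14.19 to 14.77 in males, with no overlap but an adjusted p of 0.0675 (difference -0.69, SE 0.15). The other 5 probes gave differences from -2.33 to -0.38, and 3 of them passed the test. The sources used here do not give the exons in which the probes lie, and probes named for 1 Ugt1a gene may read the exons that all of its transcripts share. Ugt1a6b (-0.35, adjusted p = 0.181) and Ugt1a7c (-0.07, adjusted p = 0.924) did not pass. Along the locus the 3 tested genes at the far end, Ugt1a5, Ugt1a2 and Ugt1a1, were those with male arrays at or near background. Their fitted differences rest on those male arrays and are not sizes that can be ranked. Only the folds given above with the words at least are bounds, and they hold on the normalized scale.

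**Figure D2:**
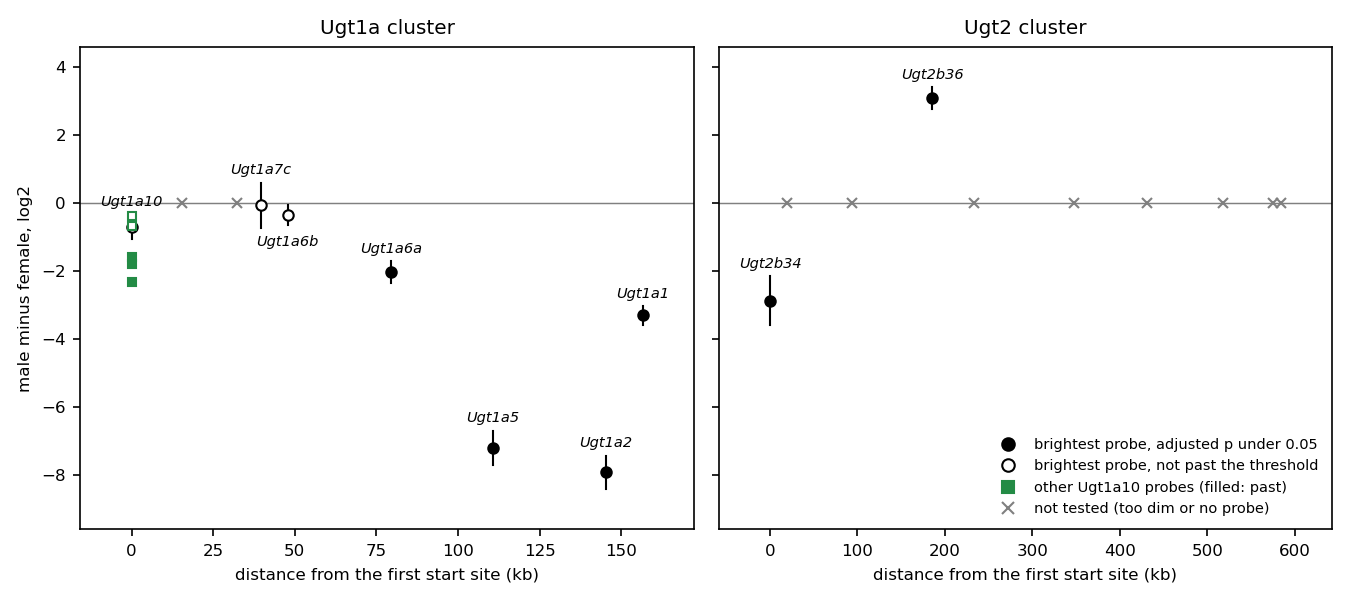
Male minus female difference on the log2 scale (vertical axis) against distance from the first start site of the cluster in kb (horizontal axis) for the Ugt1a and Ugt2 clusters. Circles are the brightest probe of a gene with its 95% interval (filled where the adjusted p is under 0.05), squares the other Ugt1a10 probes, and crosses mark only the place of genes with no tested probe; Ugt1a5, Ugt1a2 and Ugt1a1 have fitted values against male arrays at or near background, and Ugt2b34 and Ugt2b36 lie on opposite sides of 0.

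The Ugt2 cluster on chromosome 5 encodes enzymes of the family that conjugates steroids and bile acids. Of the 10 cluster genes on the array, Ugt2b34 and Ugt2b36 were tested, and they differed between the sexes in opposite directions. Their promoters, both on the minus strand, with starts 185.6 kb apart and other cluster genes between them, are shown because members of 1 cluster moved apart. Neither window held any of the 4 motifs.
Ugt2b34, chr5:86906938-86907187 (minus strand, GRCm38.p6): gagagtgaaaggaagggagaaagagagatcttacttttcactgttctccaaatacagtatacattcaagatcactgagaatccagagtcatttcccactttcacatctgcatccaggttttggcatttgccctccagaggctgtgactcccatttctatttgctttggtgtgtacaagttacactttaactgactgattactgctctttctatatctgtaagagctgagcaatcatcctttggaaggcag
Ugt2b36, chr5:87092556-87092805 (minus strand, GRCm38.p6): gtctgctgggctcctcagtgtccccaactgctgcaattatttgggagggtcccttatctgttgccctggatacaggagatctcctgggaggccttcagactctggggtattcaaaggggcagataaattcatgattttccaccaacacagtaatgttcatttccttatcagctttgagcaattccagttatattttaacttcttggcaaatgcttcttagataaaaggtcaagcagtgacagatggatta

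Ugt2b34 read 8.80 and 8.86 in wildtype females, 9.01 and 8.77 in mutant females, 6.01 and 5.13 in wildtype males and 5.76 and 7.03 in mutant males. It was detected on 4 female and 3 male arrays, and the highest male array, mutant male 4, stayed below every female array. The difference was -2.87 (SE 0.31, adjusted p = 0.00618, limma), 7.34-fold. With the undetected male array at its floor, females were at least 7.14-fold higher on the normalized scale. The difference was -1.91 with no background correction and -1.29 in the authors' processed values. Ugt2b36 went the other way, at 8.40 and 8.83 in wildtype females, 8.10 and 8.35 in mutant females, 11.50 and 11.55 in wildtype males and 11.56 and 11.45 in mutant males. The male arrays lay within a narrow band (11.51 ± 0.0532, SD, n = 4) above all female arrays (8.42 ± 0.30). Its difference was 3.09 (SE 0.13, adjusted p = 0.000106), 8.53-fold higher in males.

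Ugt8a is the second UGT gene that was higher in males; it transfers galactose to ceramide, the first step toward the sulfatide lipids of kidney and myelin, and so is not a drug-conjugating enzyme. It read 8.59 and 8.97 in wildtype females, 8.86 and 8.79 in mutant females, 11.21 and 11.21 in wildtype males and 11.63 and 11.44 in mutant males. No arrays overlapped, and the difference was 2.56 (SE 0.12, adjusted p = 0.000212), 5.92-fold. Ugt3a1 and Ugt3a2, whose human counterparts use other UDP-sugars, did not pass. Ugt3a1 ran from 12.81 to 13.57 in females and from 13.64 to 14.05 in males, without overlap (0.68, SE 0.18, adjusted p = 0.103), and Ugt3a2 differed by 0.19 (adjusted p = 0.384).

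Gsta1 and Gsta2 encode closely related soluble enzymes of the alpha class and lie on opposite strands of chromosome 9, with starts 116.5 kb apart. The 250 bases before the starts of Gsta1 and Gsta2 were identical in 190 of 266 alignment columns (71.4%). Pairs among Ugt1a2, Ugt1a5 and Ugt1a1, all higher in females, had 48.8% to 51%. Ugt2b34 and Ugt2b36, which differed between the sexes in opposite directions, had 50.2%. Whether the likeness of promoters has a part in the sex differences was not tested. Capitals mark the longest identical stretch, of 29 bases.
Gsta1, chr9:78230419-78230668 (plus strand, GRCm38.p6): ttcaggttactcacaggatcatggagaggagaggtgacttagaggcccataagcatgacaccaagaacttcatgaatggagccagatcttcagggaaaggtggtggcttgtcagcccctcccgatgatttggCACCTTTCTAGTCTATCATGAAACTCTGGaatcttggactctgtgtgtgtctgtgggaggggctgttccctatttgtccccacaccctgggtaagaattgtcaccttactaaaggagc
Gsta2, chr9:78347146-78347395 (minus strand, GRCm38.p6): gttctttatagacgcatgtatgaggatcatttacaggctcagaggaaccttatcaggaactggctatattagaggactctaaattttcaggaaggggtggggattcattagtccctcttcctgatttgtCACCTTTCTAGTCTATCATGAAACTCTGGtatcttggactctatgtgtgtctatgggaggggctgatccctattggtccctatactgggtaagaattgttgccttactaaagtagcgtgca

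Gsta2 read 13.72 and 13.46 in wildtype females, 13.79 and 13.37 in mutant females, 10.56 and 8.65 in wildtype males and 9.37 and 9.83 in mutant males. Gsta1 read 13.37 and 13.66 in wildtype females, 13.54 and 13.38 in mutant females, 10.99 and 9.06 in wildtype males and 9.48 and 10.25 in mutant males. Female arrays were tight and male arrays were spread, and both genes placed the 4 male arrays in the same order, with wildtype male 2 highest and wildtype male 4 lowest. The difference was -3.98 for Gsta2 (SE 0.39, adjusted p = 0.00428, 15.8-fold) and -3.54 for Gsta1 (SE 0.41, adjusted p = 0.00822, 11.6-fold). The 2 dimmer Gsta1 probes differed by -2.58 and -1.61 and did not pass (adjusted p = 0.101 and 0.185). Because the 2 genes are near-identical copies, their probes may share signal, and the separate values are uncertain to that extent.

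Gsta3 and Gsta4 showed smaller differences in the same direction. Gsta3 read 13.87, 14.00, 14.03 and 14.07 in females and 12.91, 12.79, 13.25 and 13.23 in males (-0.95, SE 0.10, adjusted p = 0.00595, 1.93-fold). Its second probe gave -0.84 (adjusted p = 0.0468). Gsta4, which conjugates 4-hydroxynonenal, a product of lipid peroxidation, read 10.57, 10.37, 11.55 and 10.40 in females and 8.80, 8.94, 8.76 and 9.41 in males. No arrays overlapped for either gene, and Gsta4 differed by -1.75 (SE 0.27, adjusted p = 0.0242, 3.35-fold). Its call was lost when wildtype female 1, wildtype female 3, wildtype male 2 or wildtype male 4 was left out, where the adjusted p reached 0.0977.

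Gsto1, an omega-class enzyme that reduces dehydroascorbate, read 12.13, 12.30, 12.28 and 12.43 in females and 10.79, 10.77, 10.80 and 11.12 in males. The female and male arrays formed 2 tight, separate sets, and the difference was -1.41 (SE 0.12, adjusted p = 0.00259, 2.67-fold). Gstm7, a mu-class enzyme, read 8.79, 8.42, 9.33 and 8.51 in females and 6.94, 7.86, 7.52 and 6.95 in males. It differed by -1.45 (SE 0.28, adjusted p = 0.0469, 2.73-fold), and by -0.82 in the authors' values. Mgst3, a membrane-bound enzyme that also acts on lipid peroxides, read 13.14, 13.14, 13.34 and 13.42 in females and 12.52, 12.80, 12.50 and 12.78 in males. It differed by -0.61 (SE 0.12, adjusted p = 0.0491, 1.53-fold), and its other probe by -0.64 (adjusted p = 0.0425). The calls of Gstm7 and Mgst3 sat at the threshold and were lost whichever of the 8 arrays was left out, with adjusted p-values up to 0.158 and 0.158.

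The 15 GST genes that did not pass ran from -0.62 (Gstt1) to 0.41 (Gstp3). Of the mu class on chromosome 3, Gstm1, Gstm2, Gstm4, Gstm5 and Gstm6 differed by -0.40 to -0.19. For Gstm6 a dimmer probe passed (-1.31, adjusted p = 0.0444) while its brightest did not (-0.38, adjusted p = 0.333). Gstt1, Gsto2, Gstk1, Gstm2 and Gstm1 had female and male arrays that did not overlap. The pi-class genes Gstp1 (-0.05) and Gstp2 (-0.21), Gstz1 of tyrosine breakdown (-0.21), Gstcd (0.15), Gstt2 (-0.41) and Gstt3 (-0.43) did not pass either. Mgst1, which protects membranes from peroxides, differed by -0.59 (adjusted p = 0.116), and Mgst2, which can form leukotriene C4, by 0.36 (adjusted p = 0.433).

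Sult1c2, the SULT gene nearest to the threshold, read 13.65, 13.29, 13.47 and 13.60 in females and 12.96, 12.78, 12.90 and 12.35 in males. The arrays did not overlap, but the difference of -0.75 (SE 0.16) had an adjusted p of 0.0603; it passed without background correction (0.0265) and in the authors' values (0.0385). Sult1d1, which sulfates catecholamines in the mouse, ran from 12.77 to 13.22 in females and from 13.14 to 13.56 in males (0.31, adjusted p = 0.226). Sult1a1, the phenol sulfotransferase, ran from 10.65 to 10.83 in females and from 10.44 to 11.93 in males (0.57, adjusted p = 0.316), with the lowest value on mutant male 2. Sult2b1, which sulfates cholesterol, differed by -0.02 (adjusted p = 0.98) and Sult5a1 by 0.12 (adjusted p = 0.67).

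**Figure D3:**
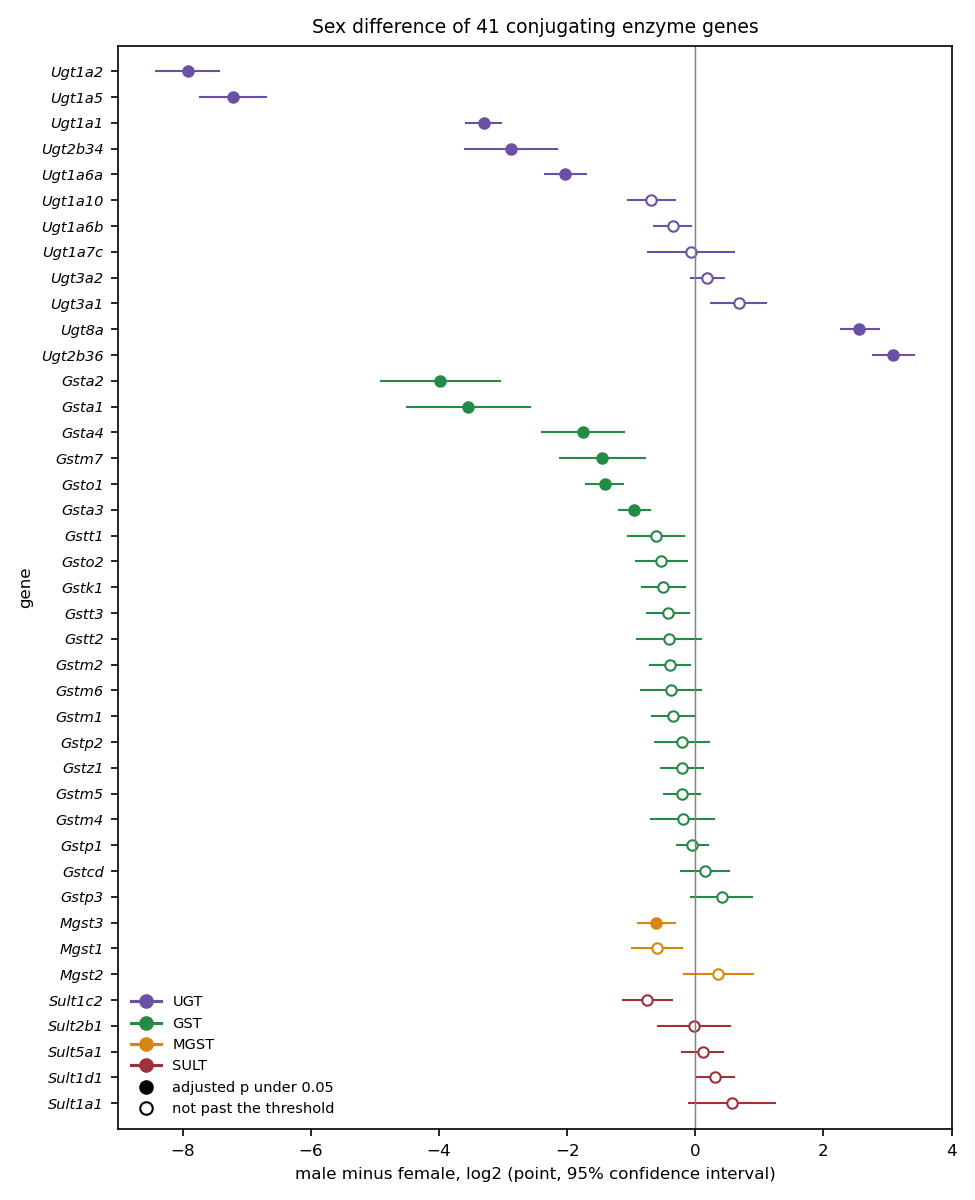
Male minus female difference on the log2 scale (horizontal axis) for each of the 41 tested genes (vertical axis), grouped by family in colour. Points are estimates, lines their 95% intervals and filled points have an adjusted p under 0.05; of the 14 filled points, 12 lie left of 0 (higher in females) and 2 right of it. Ugt1a2, Ugt1a5 and Ugt1a1 are fitted values against male arrays at or near background.

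By family, the median difference between males and females was -0.52 for UGT, -0.41 for GST, -0.59 for MGST and 0.12 for SULT, with -0.40 over all 41 members and -0.02 over all named genes. Probes of 1 gene did not always move together: 18 members had several tested probes, and in 14 of them all probes had the same sign. The exceptions were Gstcd, Gstp1, Sult2b1 and Ugt1a6a.

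The cell makeup of the arrays was set beside these sex differences through marker lists. The proximal tubule markers, summed, ran from 169296 to 176578 in wildtype females and from 163042 to 170422 in wildtype males, which overlapped. In mutants the sums did not overlap, at 149811 to 164456 in females and 180884 to 187517 in males. Of those 13 markers, 6 lay above 0 and 7 below, with a median of -0.19. The anion transporter Slc22a6 was higher in males (1.23) and the glucose transporter Slc5a2 higher in females (-0.77). Kap, a bright marker and so heavy in a linear sum, read 12.77 to 14.39 in females and 14.69 to 14.96 in males (0.91, not past the threshold). It was lowest on mutant female 1, which also had the lowest sum. Slc34a1 and Slc27a2, also bright, differed by 0.02 and 0.10. The sums therefore do not measure tubule content alone. The pan-endothelial markers summed to 53906 to 70735 in females, 117803 to 149570 in wildtype males and 50867 to 92091 in mutant males, and 11 of 12 lay above 0 in the male minus female difference, none past the threshold (median 0.60). The part of these shifts in the enzyme differences was not tested. In sorted samples of mixed cells, fewer cells of a type and less RNA per cell cannot be told apart.

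Genotype was the comparison named in the series title, and for these genes it gave 0 calls. None of the 41 members (70 probes) passed at an adjusted p under 0.05 between mutants and wildtype in limma, and 2 had an unadjusted p under 0.05. Of all named genes 0.0401% passed after adjustment and 8.38% had an unadjusted p under 0.05. The 4 mutant and 4 wildtype arrays overlapped for every tested member, against 3.05% of all named genes without overlap. Differences, mutant minus wildtype, ran from -0.36 (Mgst2) to 0.44 (Ugt2b34), with 23 above and 17 below 0. The family medians were 0.14 for UGT, 0.04 for GST, 0.00 for MGST and 0.17 for SULT, against 0.02 for all named genes.

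The 95% intervals of the genotype differences reached down to -1.07 (Gsta1) and up to 1.17 (Ugt2b34). The 2 members with an unadjusted p under 0.05 were Ugt1a1 (-0.33, SE 0.12, adjusted p = 0.48 in limma) and Gsta3 (0.25, SE 0.10, adjusted p = 0.55). For Ugt1a1 the male arrays of both genotypes were below detection. Of the genes with large sex differences, 3 had genotype differences of 0.29 (Ugt1a2, interval -0.20 to 0.78), -0.12 (Ugt1a5, -0.63 to 0.39) and -0.01 (Gsta2, -0.94 to 0.92). Ugt1a2 was detected on 2 male arrays and Ugt1a5 on 1, so these values average in male arrays near background. Within females the 2 genes differed by 0.47 and 0.30, and within males by 0.11 and -0.54, none past the threshold.

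Among the other UGT genes nearest to the threshold, Ugt1a6a differed by 0.31 (adjusted p = 0.59) and Ugt1a6b by 0.20 (adjusted p = 0.755). Gsto1 (0.16), Gstp2 (-0.25), Mgst1 (0.00), Mgst2 (-0.36) and Mgst3 (0.11) had adjusted p-values from 0.766 to 0.999. The sulfotransferases Sult1d1 (0.26), Sult2b1 (0.43) and Sult5a1 (0.17) had adjusted p-values from 0.639 to 0.819. Beside these values, all 12 pan-endothelial markers were below 0 in mutants (median -0.62) and all 8 tubule injury markers were above 0 (median 0.84). The proximal tubule markers had a median of 0.01, and none of the 3 lists held a call. Summed, the proximal tubule markers were lower in mutant than wildtype females (149811 to 164456 against 169296 to 176578). The lowest sum was on mutant female 1, where the bright marker Kap read 12.77, against 14.24 to 14.39 on the other female arrays. In males they were higher in mutants (180884 to 187517 against 163042 to 170422). The part of these marker shifts in the enzyme values was not tested.

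**Figure D4:**
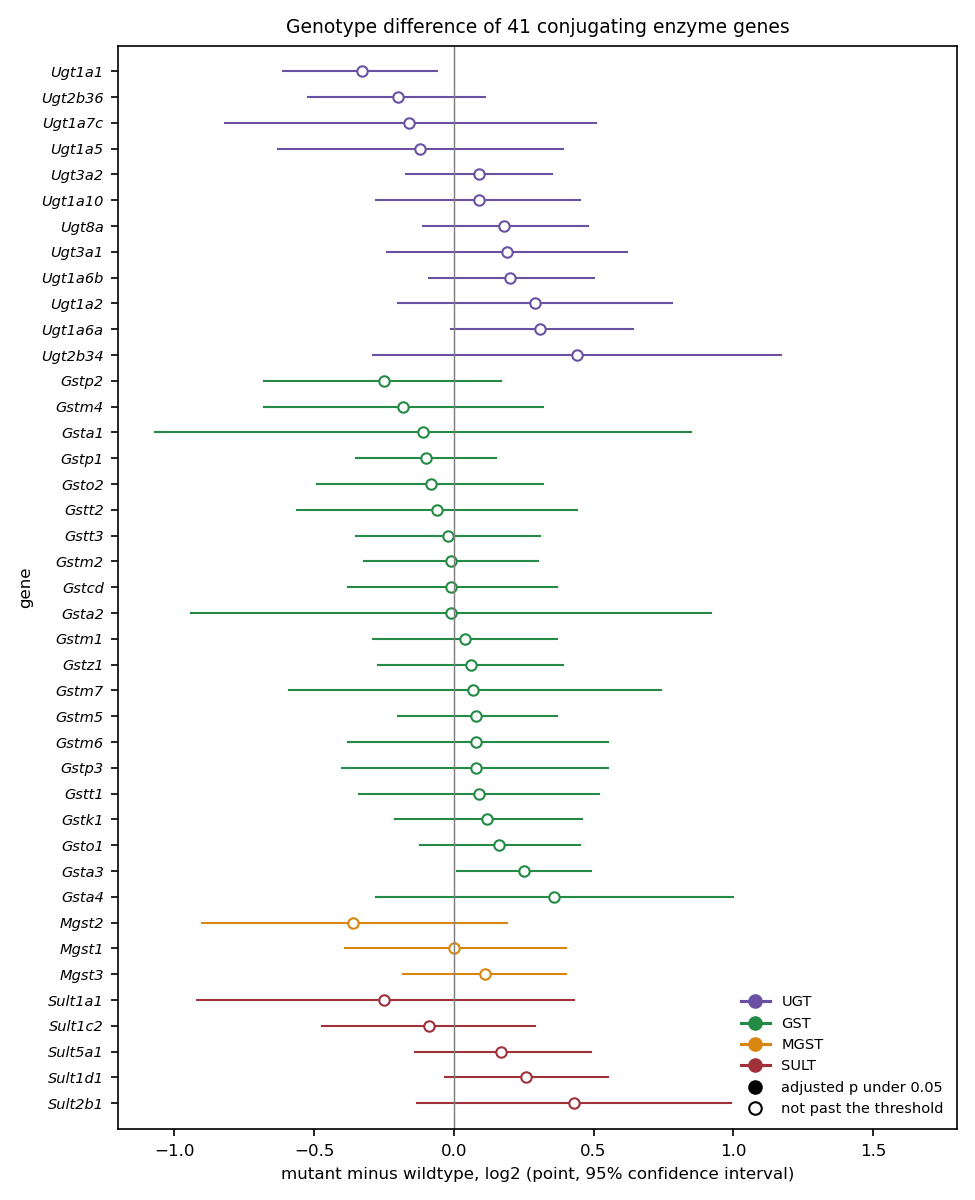
Mutant minus wildtype difference on the log2 scale (horizontal axis) for each of the 41 tested genes (vertical axis), grouped by family in colour, with 95% intervals as lines. No point is filled, since 0 genes had an adjusted p under 0.05, and the estimates lie between -0.36 and 0.44.

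Splitting by sex gave the same count. Within females 0 of the 41 members passed, with Ugt1a1 alone under an unadjusted limma p of 0.05 (difference -0.45). Within males 0 passed, with Gsta3 alone under that p (difference 0.39, adjusted p = 0.38). No named gene passed in either sex (0%). The difference between the genotype effects of the sexes, tested as an interaction, gave 0 calls among the 41 members and 0% of all named genes, and 0 members had an unadjusted p under 0.05 against 6.78% of all named genes. It ran from -0.84 (Ugt1a5, adjusted p = 0.758) to 0.76 (Ugt2b34, adjusted p = 0.853). Both ends rest on dim male arrays, with Ugt1a5 detected on 1 of the 4 and Ugt2b34 on 3.

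The genes that feed and clear these pathways were examined as lists chosen for their roles. For the supply and removal of glucuronic acid, 2 of 4 genes were tested and none passed for sex: Ugp2, which makes UDP-glucose, differed by -0.41 and Gusb, the lysosomal enzyme that removes glucuronic acid, by 0.38. Of 8 tested genes that make, carry or clear the sulfate donor, 1 passed. This was Papss2, a PAPS synthase, which read 14.02, 13.52, 13.76 and 14.00 in females and 12.57, 12.88, 13.22 and 12.61 in males (-1.0, SE 0.19, adjusted p = 0.0444). Its call was lost when any array other than mutant male 2 was left out, with an adjusted p of up to 0.14, and also with a random block (0.059), median scaling (0.0689) or no filter (0.0694). The related Papss1 differed by 0.37 (adjusted p = 0.137).

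All 7 tested genes of glutathione synthesis and recycling lay above 0 in males, with none past the threshold and a median of 0.38. The nearest were Ggct (0.90, adjusted p = 0.0845) and Chac1 (0.56, adjusted p = 0.142), both of glutathione breakdown. In the mercapturate pathway, which trims glutathione conjugates and acetylates them for excretion, 2 of 5 tested genes passed, both higher in males, while Dpep1 (-0.72), Acy1 (-0.22) and Anpep (-0.21) did not pass. Cndp2, a dipeptidase that splits cysteinylglycine, read 7.74, 7.63, 7.46 and 7.89 in females and 9.57, 9.07, 10.03 and 9.89 in males (1.96, SE 0.16, adjusted p = 0.00221). Nat8, which acetylates cysteine conjugates, read 12.29, 12.88, 12.72 and 12.78 in females and 14.04, 14.10, 14.17 and 14.12 in males (1.44, SE 0.15, adjusted p = 0.00499). Both were higher on every male array, the opposite direction to the GST calls.

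Among 5 tested efflux pumps for conjugates, 2 passed, both higher in females, while Abcc2 (-0.44), Abcc5 (-0.10) and Abcg2 (0.09) did not pass. Abcc3 read 8.40, 8.07, 7.72 and 8.43 in females and 5.98, 6.46, 6.11 and 6.28 in males (-1.95, SE 0.20, adjusted p = 0.00527). Abcc4 read 11.16, 10.94, 11.86 and 11.16 in females and 10.02, 10.07, 9.97 and 9.97 in males (-1.27, SE 0.17, adjusted p = 0.0130), and its call was lost without wildtype female 1, wildtype male 2 or wildtype male 4 (adjusted p up to 0.0671). Abcc4 was also the 1 call among 9 tested targets of NRF2, the factor that induces many GST genes under oxidative stress; Hmox1, the target with the next smallest p, differed by 0.53 (adjusted p = 0.224). Of 12 tested xenobiotic sensors and regulators, 1 passed: Nr1i2, the pregnane X receptor, which induces UGT, GST and efflux genes, read 7.35, 7.60, 7.69 and 8.21 in females and 6.11, 5.75, 5.93 and 6.28 in males (-1.69, SE 0.17, adjusted p = 0.00493). Ppara differed by -0.69 (adjusted p = 0.0962).

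For genotype none of these 7 lists held a call. The nearest genes were Bpnt1 (0.57, adjusted p = 0.405) and Slc26a1 (0.36) for sulfate supply, Chac1 (-0.78, adjusted p = 0.352) and Gclc (-0.26) for glutathione, and Abcc5 (0.32, adjusted p = 0.441) and Abcc4 (0.20) for efflux. Anpep (0.33), Cndp2 (0.32), Ephx1 (-0.38), Nr1i2 (0.32), Rxra (0.24), Ugp2 (0.27) and Gusb (-0.13) completed the genes named by the same rule.

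Promoter windows of 250 bases before a start were found in the RefSeq table for 37 of the 41 members, and 4 motifs were searched on both strands. The antioxidant response element core TGACNNNGC, through which NRF2 acts, was present in 10.2% of all 32851 windows and in windows of 4 members (Gsta3, Gstm5, Gstm7 and Mgst1), 2 of which were higher in females. The HNF1 motif was present in 0.371% of all windows and in those of Sult1d1, Ugt1a1 and Ugt1a10. The HNF4 motif CAAAGTCCA (0.384% of all windows) and the androgen receptor element (0.368%) had no match among the members. These are matches of letters, not binding sites, and a window without a match says nothing about the factor.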

How the data were processed

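Total RNA of 8 samples was hybridised to 1-colour Illumina arrays, 1 per sample, after biotin labelling, per the labels. The deposited signal table holds a linear intensity for each of 45281 probes and array, with a detection p-value beside it, per the file headers; its values show no normalization. The authors' deposited processed table is on a log2 scale with unstated processing. Each of its columns matched its own array (r from 0.977 to 0.986) above any other (at most 0.443), with medians from 7.46 to 7.47, and it served as an alternative. There were 0 columns without a sample.

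Signals were background-corrected by normexp through the detection p-values, given an offset of 16, then quantile normalized and log2 transformed (function neqc of limma 3.58.1, R 4.3.3). Testing covered the 23841 probes detected at p under 0.05 on 2 or more arrays. The platform annotation tied 34885 probes to 1 symbol, 18 to several and 10378 to none; 34807 were matched to the GRCm38.p6 gene table by Entrez identifier, which renamed 0. A mean was fitted for each genotype and sex (lmFit, eBayes, 4 residual and 3.05 prior degrees of freedom), and sex, genotype, the genotype within each sex and the interaction were tested two-sided, with Benjamini-Hochberg adjustment over all tested probes and a threshold of 0.05. Errors are standard errors of this fit unless called SD. The scripts were tested on simulated data. Tables and figures used Python 3.11.15, pandas 2.3.3 and matplotlib 3.10.9. The number of arrays limits the precision.

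An "at least" fold holds on the normalized scale only. It sets the brighter mean against a floor: on each dim array, the dimmest detected probe of that array or the probe itself, whichever was brighter. Genes were named where past the threshold, among the 3 smallest p-values of a family for sex or genotype, or among the 2 smallest of a pathway list; other members are named only to account for them. Members and lists were chosen with earlier results of these data known. Samples of 1 number and sex deviated together (r = 0.1001 for numbers 1 and 3, 0.2693 for 2 and 4), and the labels speak of pairs, so a fit with the number as a block was run; females and males share no number, so the sex comparison cannot be blocked. Alternatives were no background correction, median scaling, the authors' values, no filter, a filter of 4 arrays, the mean of a gene's probes, a random block, an additive model and leaving out each array. Promoter windows are from RefSeq (GRCm38.p6).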

Additional observations from a re-analysis of the deposited data

Results flagged for a closer look

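For Gstp1, a pi-class glutathione S-transferase, the mutant minus wildtype difference was 0.07 in females and -0.26 in males, a male minus female difference of -0.32 on the log2 scale. It stood out because every mutant female array lay above both wildtype female arrays and every mutant male array lay below both wildtype male arrays. Such separation of 2 against 2 arrays often arises by chance, so by itself it says little about a gene. Mutant and wildtype arrays did not overlap for 14 of the 41 members within females and for 9 within males. The share over all named genes was not computed, so these counts are not read as a result about the members. The values were 12.66 and 12.57 in wildtype females, 12.69 and 12.68 in mutant females, 12.83 and 12.64 in wildtype males and 12.55 and 12.40 in mutant males. The interaction term did not pass (adjusted p = 0.816, limma). Its second probe read 11.59 and 11.60 in wildtype females, 11.66 and 11.70 in mutant females, 11.93 and 11.73 in wildtype males and 11.80 and 11.53 in mutant males, so the male groups overlapped there. The third probe did not show the pattern, with a difference of -0.10 in females and -0.10 in males (interaction 0.01, adjusted p = 0.998, limma).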

How the results depend on the processing

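The count of sex calls (14) stayed between 12 and 16 under 8 alternatives and between 11 and 13 when 1 array was left out, with the calls lost among Gsta4, Gstm7 and Mgst3 and Sult1c2 gained without mutant male 2. It was 16 with no background correction and in the authors' values (Sult1c2 and Ugt1a10 gained), 12 with no filter or a random block (Gstm7 and Mgst3 lost) and 14 with the mean of a gene's probes (Ugt1a6a lost, Ugt1a10 gained). The genotype count was 0 in every alternative, including the fit with the replicate number as a block (0 calls), and the interaction count was 0 likewise. That block fit holds no sex comparison, so it cannot bear on the sex calls. Genotype differences near 0 changed sign: Gsta2 to 0.04 with median scaling, Mgst1 to 0.00 with the mean of probes, and Ugt1a5 to 0.00 with no background correction and 0.09 in the authors' values. With 1 array left out they ran from -0.49 to 0.47 for Gsta2, -0.11 to 0.11 for Mgst1 and -0.32 to 0.08 for Ugt1a5. In the authors' values the sex difference was -0.81 for Abcc3, -0.61 for Nr1i2 and 1.33 for Cndp2, all still called. The cause of these shifts was not tested.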
